A study of Mus musculus with 12 samples.

Results

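Islets of Langerhans from control mice were compared between 4 wk after streptozotocin (STZ) and 24 h after citrate buffer, the vehicle. The comparison was chosen by its labels and holds 4 of the 12 libraries of the series, A and B of each group, and 17411 of the 24421 annotated genes passed the filter on low counts and were tested. Control mice carry 2 floxed alleles of Bmal1 (Bmal1fl/fl), with no Cre named in their label, in both groups. The knockout mice used below for comparison carry RIPCreERT in addition, a tamoxifen-inducible Cre driven by the rat insulin promoter. The dose is described only as submaximal, and no source used here gives the age of the mice. The vehicle libraries are all from 24 h, so that 4 wk of time and STZ change together and cannot be told apart. Whether A and B of a group are different animals is not said in the labels, so part of the variation between them may be technical. The p-values set the difference between groups against a spread within groups, estimated over all 12 libraries, the knockout included. That spread may not be the one between animals.

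STZ is a sugar-linked alkylating agent that enters beta cells through the glucose transporter GLUT2 and damages their DNA. Beta cells that survive or recover from such an injury can keep or lose the genes of the mature state, which include insulin, the glucose sensing machinery and the transcription factors that hold beta-cell identity. Islets also contain alpha, delta and PP cells, vessels, macrophages and stroma, and islets freed from the pancreas carry acinar cells along. In bulk libraries like these, fewer cells of a type and less RNA per cell cannot be told apart.

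Total counts of the 4 libraries ranged from 104363359 to 127207523. The labels call the tissue mostly beta cells, and Ins1, Ins2 and Iapp were among its abundant transcripts, but 30 acinar genes held 36.8% and 35.9% of all counts in vehicle A and B. They held 20.5% and 20.4% at 4 wk, against 24.4% and 24.8% in control islets 24 h after STZ. Their level thus differed between the groups compared, with no overlap. Its part in the other results was not tested, because a score of these genes changes together with the groups. A fit with that score as a covariate is given at the end. In it, of 121 named genes called, 30 lost their call and 18 changed sign. Genes of the stomach lining and of B and T cells were higher in the vehicle libraries, whereas genes of hepatocytes and enterocytes were higher at 4 wk, and these are described with their values below. The 2 libraries of a group were not copies: A and B at 4 wk differed by a chi-square over degrees of freedom of 329, and in vehicle by 45.6. The gap between A and B went with the GC content of genes, with correlations across genes of -0.67 at 4 wk and 0.33 in vehicle. Genes are not independent replicates in such a correlation.

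**Figure D1:**
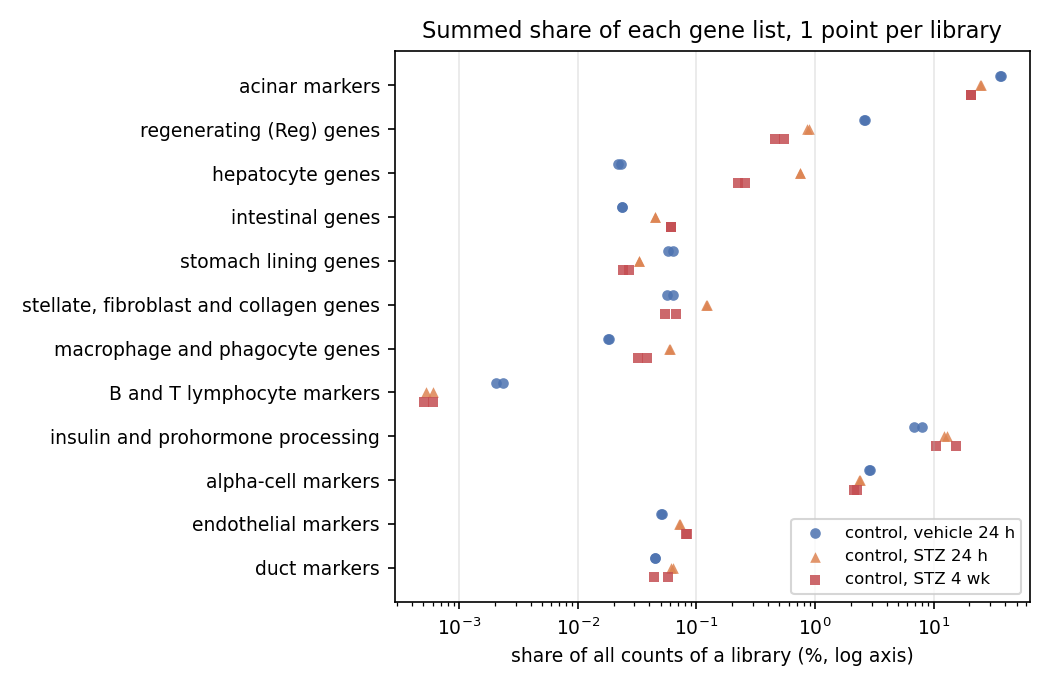
Each point is the summed share of all counts of a library (%, log axis) held by the members of a list that stand in no other list, for control islets 24 h after vehicle, 24 h after STZ and 4 wk after STZ (A and B of each). Acinar genes fell from 36.8% and 35.9% in vehicle to 20.5% and 20.4% at 4 wk, and the Reg genes from 2.60% and 2.65% to 0.551% and 0.455%.

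Levels below are in CPM, each gene's count relative to the library size, with library sizes scaled by the trimmed mean of M values (TMM), given as A and B of each group, and changes are log2 fold changes of 4 wk over vehicle with their standard error (SE). A gene rose or fell where its adjusted p in edgeR's quasi-likelihood test was under 0.05. Of the 17411 genes tested, 1565 passed, which is 8.99%. Of these, 867 rose (4.98% of genes tested) and 698 fell (4.01%), and the median log2 of all genes tested was 0.03. The size of each side moved with the scaling. Total-count scaling placed the median gene at 0.41 and gave 3852 higher and 455 lower genes, and scaling to 20 pan-endocrine genes placed it at -0.24 and gave 584 higher and 1147 lower genes. Genes whose call ended under 1 of these scalings are named as such. The 15 largest gains and the 15 largest losses included genes of gut, liver, stomach, smooth muscle and B cells and members of the Reg family.

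**Figure D2:**
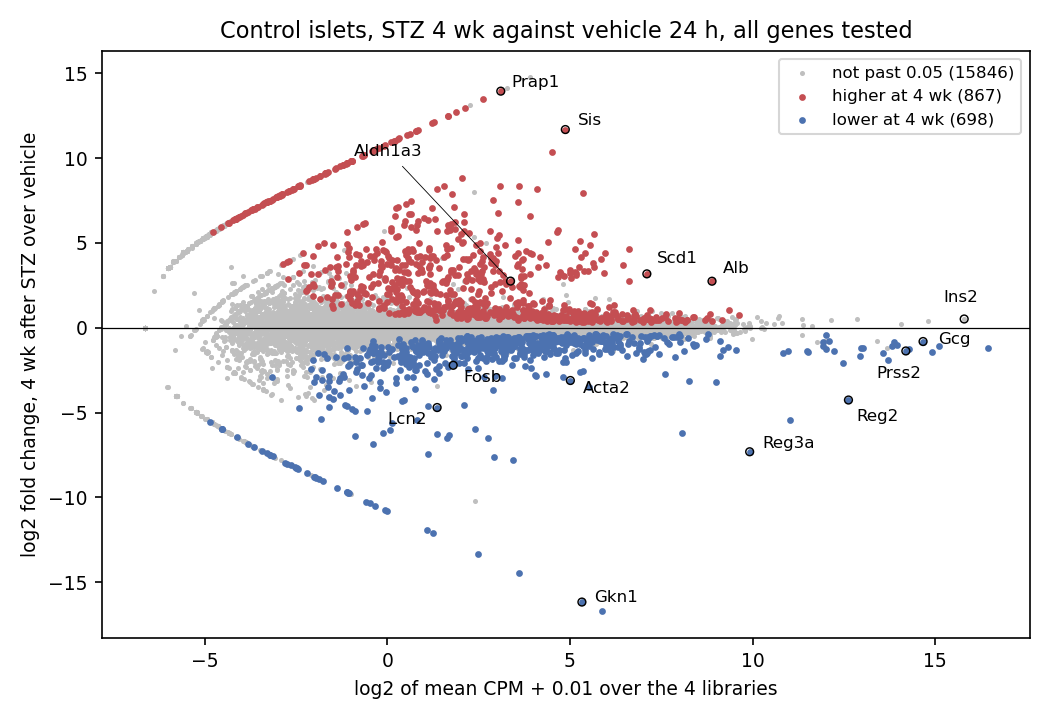
Each point is 1 of the genes tested, by its log2 mean CPM over the 4 libraries (with 0.01 added) and its log2 fold change at 4 wk over vehicle, with 867 higher genes in red, 698 lower in blue and the rest in grey. The curved edges are genes with 0 counts in both libraries of a group, whose fitted change has no fixed size. The Reg genes lie far below 0 at high abundance, while Ins2 lies near 0.

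Insulin transcripts did not pass the test at 4 wk, while several genes of beta-cell identity rose modestly. Ins2 measured 51746 and 41530 CPM in vehicle and 48704 and 84733 CPM at 4 wk (log2 0.52, SE 0.40, adjusted p = 0.584). Ins1, the second mouse insulin gene, measured 26479 and 22566 CPM and then 26012 and 39524 CPM (log2 0.42, SE 0.32, adjusted p = 0.576). The groups overlapped for both, and the libraries of 4 wk spread more widely than those of vehicle. In the deposited level per length (TPM), Ins2 stood at 123700 ± 13700 TPM in vehicle and 234800 ± 65900 TPM at 4 wk (SD, n = 2), and no source used here says how reads were split between these near-identical genes. Iapp, which encodes amylin, measured 16513 and 15402 CPM and then 19307 and 17596 CPM (log2 0.21, SE 0.11, adjusted p = 0.358). Of 14 genes of insulin and prohormone processing, 1 rose, the ER disulfide isomerase gene Pdia4, from 140 and 146 CPM to 262 and 239 CPM (log2 0.81, SE 0.11, adjusted p = 0.00139). The list's median log2 was 0.18. It was 0.56 with 9 of 14 higher under total-count scaling and -0.10 with none passing under pan-endocrine scaling, where the call of Pdia4 ended. Scg5, Cpe, Pam and Pcsk2 of this list are also among the pan-endocrine scaling genes, which that scaling holds near no change as a set.

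Of 18 beta-cell transcription factors, 4 rose and 1 fell, with a median log2 of 0.35. The 20 pan-endocrine scaling genes all had a log2 above 0, with a median of 0.285, and 0 of them passed. Pdx1, the master regulator of pancreas and beta-cell fate, rose from 19.4 and 17.9 CPM to 34.5 and 45.2 CPM (log2 1.10, SE 0.23, adjusted p = 0.0194). Both libraries of 4 wk lay well above both of vehicle. The endocrine factors Nkx2-2 (log2 0.67, SE 0.14, adjusted p = 0.0187), Myt1 (log2 0.53, SE 0.085, adjusted p = 0.00439) and Foxa2 (log2 0.34, SE 0.09, adjusted p = 0.0479) rose as well. Nkx6-1 measured 34.6 and 30.2 CPM and then 43.9 and 66.1 CPM (log2 0.76, SE 0.32, adjusted p = 0.233). Mafa, a factor of mature beta cells, was low throughout, with 1.38 and 0.615 CPM in vehicle and 2.55 and 9.29 CPM at 4 wk (log2 2.57, SE 1.13, adjusted p = 0.268). Bhlha15, which encodes MIST1 and is a factor of secretory cells that is abundant in acini, fell from 143 and 138 CPM to 69.2 and 81.9 CPM (log2 -0.89, SE 0.17, adjusted p = 0.01). Its fall accompanied that of the acinar genes given above. The calls of Nkx2-2, Myt1 and Foxa2 ended under pan-endocrine scaling, and that of Bhlha15 under total-count scaling. Without 4 wk B, vehicle A or vehicle B the adjusted p of Pdx1 was 0.0945 to 0.138 and that of Nkx2-2 0.116 to 0.124. Bhlha15 lost its call without 4 wk A, vehicle A or vehicle B (0.0555 to 0.0754) and Foxa2 without any 1 of the 4 (0.125 to 0.25).

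Of 21 genes of glucose sensing, incretin receptors and beta maturity, 2 rose and 1 fell, with a median log2 of 0.23. Glp1r, the receptor for the incretin GLP-1, rose from 85.8 and 87.2 CPM to 132 and 142 CPM (log2 0.67, SE 0.10, adjusted p = 0.00272). Ucn3, a peptide of mature beta cells, rose from 263 and 258 CPM to 373 and 451 CPM (log2 0.66, SE 0.15, adjusted p = 0.0301). In both genes the groups were apart, yet both calls ended under pan-endocrine scaling, and that of Ucn3 also without 4 wk B, vehicle A or vehicle B (adjusted p 0.143 to 0.181). Slc2a2, which encodes GLUT2, the transporter that admits STZ, measured 593 and 605 CPM and then 746 and 637 CPM (log2 0.21, SE 0.12, adjusted p = 0.429). Npy1r, a receptor for neuropeptide Y that restrains secretion, fell from 2.92 and 3.45 CPM to 1.25 and 1.04 CPM (log2 -1.47, SE 0.22, adjusted p = 0.00287). Of 27 genes of granule exocytosis and calcium entry, 2 rose and 0 fell, while 4.98% of all genes tested rose and 4.01% fell. The 2 were the granule protein gene Vgf (log2 1.50, SE 0.32, adjusted p = 0.021) and the vesicle priming gene Unc13a (log2 0.92, SE 0.20, adjusted p = 0.0213). Both calls ended without 4 wk B, vehicle A or vehicle B (adjusted p 0.107 to 0.152 for Vgf and 0.075 to 0.164 for Unc13a).

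Glucagon fell while somatostatin and pancreatic polypeptide did not pass. Gcg, the hormone gene of alpha cells, went from 33143 and 33049 CPM in vehicle to 19254 and 18456 CPM at 4 wk (log2 -0.81, SE 0.09, adjusted p = 0.000474), a 1.755-fold lower level. The pairs of libraries were tight and far apart. Of 16 alpha-cell markers, 4 fell and 1 rose, with a median log2 of -0.04. Slc38a5, an amino acid transporter of alpha cells (log2 -1.03, SE 0.21, adjusted p = 0.0156), and the glutamate receptor gene Gria3 (log2 -0.71, SE 0.18, adjusted p = 0.0446) fell too. Gc, which encodes vitamin D binding protein and is made by liver as well as alpha cells, rose from 94.8 and 99.4 CPM to 212 and 181 CPM (log2 1.02, SE 0.13, adjusted p = 0.00143), in libraries where hepatocyte genes also rose. The call of Gria3 ended under total-count scaling, and that of Gc under pan-endocrine scaling. Gria3 lost its call without 4 wk B, vehicle A or vehicle B (adjusted p 0.167 to 0.254), and Slc38a5 without 4 wk A, vehicle A or vehicle B (0.0525 to 0.109). None of 14 delta, PP and epsilon genes passed in the edgeR test. Sst measured 457 and 377 CPM and then 386 and 541 CPM (log2 0.15, SE 0.26, adjusted p = 0.822), and Ppy 938 and 644 CPM and then 574 and 1262 CPM (log2 0.21, SE 0.55, adjusted p = 0.897). The groups overlapped for both hormones.

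Aldh1a3, a retinaldehyde dehydrogenase known as a marker of dedifferentiated beta cells, was among the clearest gains. It measured 2.59 and 2.77 CPM in vehicle and 18.3 and 17.8 CPM at 4 wk, a 6.73-fold higher level (log2 2.75, SE 0.12, adjusted p = 4.75e-06). At 24 h after STZ it stood at 2.91 and 2.56 CPM, and its 4 wk level was above that of 24 h (log2 2.72, adjusted p = 3.81e-05). Among 28 genes that beta cells normally keep silent or that mark dedifferentiation, 3 rose and 5 fell, with a median log2 of -0.07. Oat, ornithine aminotransferase, rose from 26.6 and 26.1 CPM to 42.1 and 39.7 CPM (log2 0.64, SE 0.10, adjusted p = 0.00356), a call that ended under pan-endocrine scaling. The genes that fell were Mylk, the smooth muscle myosin kinase (42.5 and 48.2 CPM to 11 and 11 CPM, log2 -2.04, SE 0.10, adjusted p = 6.66e-06), Sox9, a progenitor and duct factor (3.57 and 3.38 CPM to 1.4 and 1.17 CPM, log2 -1.44, SE 0.16, adjusted p = 0.000521), Lmo4 (log2 -0.80), the Hippo pathway effector Yap1 (log2 -0.67) and the neuronal gene repressor Rest (log2 -0.74). Most members of the list thus did not follow Aldh1a3. The calls of Yap1 and Rest ended under total-count scaling, that of Yap1 also without 4 wk B or vehicle B (adjusted p 0.0715 and 0.0903) and that of Rest without any 1 of the 4 libraries (0.0601 to 0.145).

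Of the genes that answer protein folding stress in the endoplasmic reticulum (ER), some passed upward and some downward at 4 wk, and most did not pass. When unfolded proteins build up, the sensors ATF6, IRE1 and PERK raise chaperones, enzymes that remove misfolded proteins and, under strong stress, ATF4 and CHOP targets. Of 30 genes of this response, 7 rose, 4 fell and 19 did not pass, with a median log2 of 0.24. With library totals as the scale 13 passed upward and 3 downward (median 0.62), and on the pan-endocrine scale 4 upward and 5 downward (median -0.05). Sdf2l1, an ER chaperone cofactor, rose from 35.1 and 33.4 CPM to 70.7 and 75 CPM (log2 1.09, SE 0.09, adjusted p = 0.000113). Creld2, another ER-resident folding protein, rose from 41 and 40.1 CPM to 88.4 and 99.7 CPM (log2 1.21, SE 0.12, adjusted p = 0.000218). Hyou1, a large ER chaperone, rose from 426 and 416 CPM to 795 and 965 CPM (log2 1.06, SE 0.16, adjusted p = 0.00348). In all 3 the groups were apart. Pdia6, a disulfide isomerase (log2 0.83, SE 0.10, adjusted p = 0.000785), Calr, the lectin chaperone calreticulin (log2 0.73, SE 0.09, adjusted p = 0.00123), Manf, a secreted ER stress factor (log2 0.65, SE 0.14, adjusted p = 0.0223) and Pdia4 rose too. Hspa5, the central chaperone BiP, measured 1301 and 1389 CPM and then 2213 and 1753 CPM (log2 0.56, SE 0.18, adjusted p = 0.104), and Hsp90b1 measured 1215 and 1367 CPM and then 2395 and 1808 CPM (log2 0.70, SE 0.21, adjusted p = 0.0896).

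Herpud1, a membrane factor of ER-associated degradation, fell from 411 and 392 CPM to 142 and 163 CPM (log2 -1.40, SE 0.12, adjusted p = 0.000113). Sel1l, the adaptor of the same degradation complex, fell from 666 and 718 CPM to 431 and 371 CPM (log2 -0.79, SE 0.13, adjusted p = 0.00475). The stress factor Nupr1 fell from 454 and 427 CPM to 203 and 251 CPM (log2 -0.96, SE 0.17, adjusted p = 0.00714). Ddit3, which encodes CHOP, measured 7.57 and 6.69 CPM and then 7.54 and 13 CPM (log2 0.53, SE 0.41, adjusted p = 0.588), with overlapping groups. Calr, Manf and Pdia4 lost their calls under pan-endocrine scaling and Sel1l under total-count scaling. Nupr1 lost its call without 4 wk A or vehicle A (adjusted p 0.0548 and 0.0553), and Manf without 4 wk A, vehicle A or vehicle B (0.119 to 0.139).

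Upstream sequences are shown for 3 of the 7 genes that rose, 2 chaperone genes that did not pass and Herpud1, which fell. They were taken from the genes in which an element was found, so that all of those shown hold a match. The 250 bases before the start of each gene were taken from RefSeq (GRCm38.p6), where 27 of the 30 genes had an entry. They were searched on both strands for the ER stress response element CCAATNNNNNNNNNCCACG, which 37 of 32851 windows held (0.113%), and for ATTGGNCCACG, known as element II, which 10 held (0.0304%). The first was found in 8 of the 27 genes (Calr, Canx, Creld2, Dnajc3, Hsp90b1, Hspa5, Pdia6 and Syvn1) and the second in Herpud1 only. Of these 8, only Calr, Creld2 and Pdia6 rose, and the rest did not pass. Sdf2l1, Hyou1, Manf and Pdia4, which also rose, were not among the genes with a match, and Hyou1 had no entry. The windows of Canx, Dnajc3 and Syvn1 are not printed. The windows below run 5′ to 3′ along the gene's strand with the element in capitals, and lie at chr15:88819495-88819563 (plus strand) for Creld2, chr12:17266466-17266534 (plus) for Pdia6, chr8:84847050-84847118 (minus) for Calr, chr2:34772000-34772068 (plus) for Hspa5, chr10:86705508-86705576 (minus) for Hsp90b1 and chr8:94386352-94386412 (plus) for Herpud1.
Creld2: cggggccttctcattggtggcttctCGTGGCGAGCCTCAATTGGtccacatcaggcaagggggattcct
Pdia6: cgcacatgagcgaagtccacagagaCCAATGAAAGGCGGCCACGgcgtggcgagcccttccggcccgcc
Calr: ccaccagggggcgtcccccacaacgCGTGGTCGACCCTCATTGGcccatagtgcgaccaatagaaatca
Hspa5: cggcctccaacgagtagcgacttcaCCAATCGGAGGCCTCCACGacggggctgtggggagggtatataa
Hsp90b1: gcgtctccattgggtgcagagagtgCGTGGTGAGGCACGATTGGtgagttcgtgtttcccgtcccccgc
Herpud1: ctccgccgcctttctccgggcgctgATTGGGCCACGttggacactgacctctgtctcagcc
The element lies 126 bases before the start in Creld2, 98 in Pdia6, 162 in Calr, 65 in Hspa5, 107 in Hsp90b1 and 52 in Herpud1, and in Creld2, Calr and Hsp90b1 it reads on the opposite strand. A match of letters is a description and does not show a bound site.

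**Figure D3:**
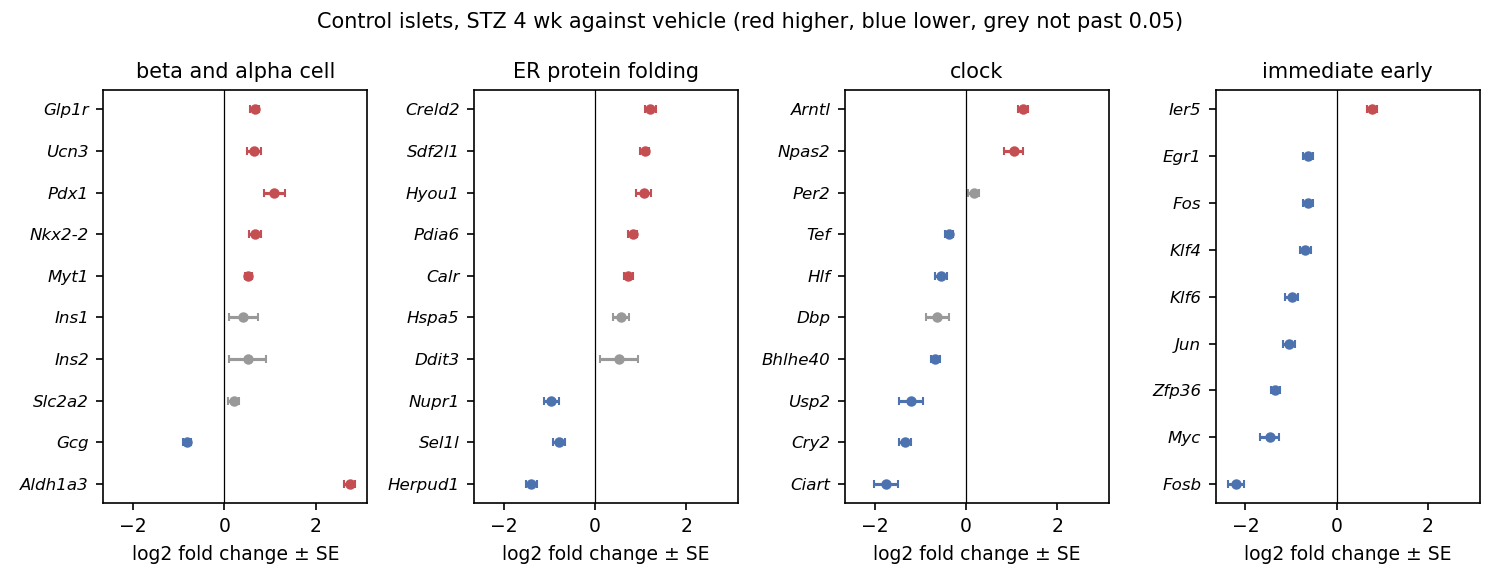
Log2 fold change at 4 wk over vehicle with its SE (horizontal bars) for genes of beta and alpha cells, ER protein folding, the clock and the immediate early response, with genes past an adjusted p of 0.05 in red (higher) or blue (lower). Creld2 (1.21) lies right of 0 while Herpud1 (-1.40) lies left, and 8 of the 9 immediate early genes drawn lie left of 0.

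Scd1, the stearoyl-CoA desaturase that makes monounsaturated fatty acids, was the outstanding metabolic gain. It rose from 26.1 and 28.7 CPM to 266 and 229 CPM, a 9.04-fold higher level (log2 3.18, SE 0.15, adjusted p = 6.66e-06), and was at 161 and 158 CPM at 24 h after STZ. Of 27 genes of cholesterol and fatty acid synthesis, 2 rose and 0 fell, with a median log2 of 0.35. The other, Scd2, went from 174 and 182 CPM to 239 and 224 CPM (log2 0.38, SE 0.10, adjusted p = 0.0425). Scd1 thus stood apart from its pathway in size, and the call of Scd2 ended under pan-endocrine scaling and without any 1 of the 4 libraries (adjusted p 0.0948 to 0.247). Scd1 is also abundant in liver, whose markers were higher at 4 wk.

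Among 13 genes that answer to glucose through the factor ChREBP, 3 rose and 1 fell, with a median log2 of 0.57. They included Fbp1, a gluconeogenic phosphatase (3.8 and 3.22 CPM to 8.81 and 10.1 CPM, log2 1.43, SE 0.12, adjusted p = 7.71e-05), and Pklr, the liver pyruvate kinase (11 and 10.4 CPM to 15.3 and 16.7 CPM, log2 0.58, SE 0.12, adjusted p = 0.0135). Both are liver genes too. Txnip, the glucose-induced inhibitor of thioredoxin, fell from 489 and 495 CPM to 373 and 384 CPM (log2 -0.38, SE 0.09, adjusted p = 0.0406). This call ended under total-count scaling (log2 0.00) and without any 1 of the 4 libraries (adjusted p 0.133 to 0.222), and that of Pklr ended under pan-endocrine scaling and without 4 wk B, vehicle A or vehicle B (0.065 to 0.108). Of 24 genes of glycolysis and the hypoxia response, 2 rose and 2 fell. Hk2, a hexokinase that healthy beta cells hold low, fell from 8.28 and 7.28 CPM to 1.22 and 1.62 CPM (log2 -2.45, SE 0.20, adjusted p = 7.61e-05) and had been at 1.24 and 1.55 CPM at 24 h. Pfkfb3, a driver of glycolytic flux, fell from 23.9 and 22.7 CPM to 9.09 and 9.53 CPM (log2 -1.33, SE 0.31, adjusted p = 0.0321). Pgam1 (log2 0.32, SE 0.08, adjusted p = 0.0426) and the collagen prolyl hydroxylase gene P4ha1 (log2 0.55, SE 0.14, adjusted p = 0.0427) rose. The calls of Pfkfb3 (adjusted p 0.116 to 0.145) and Pgam1 (0.133 to 0.221) ended without any 1 of the 4 libraries, and that of P4ha1 without 4 wk A, vehicle A or vehicle B (0.147 to 0.236). Total-count scaling ended the call of Pfkfb3, and pan-endocrine scaling those of Pgam1 and P4ha1.

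Of 28 antioxidant genes, 1 rose and 1 fell. Catalase (Cat), which is rich in liver, rose from 29.5 and 29 CPM to 54.1 and 52.9 CPM (log2 0.87, SE 0.10, adjusted p = 0.000592), below its 148 and 149 CPM at 24 h. Prdx4, an ER peroxiredoxin rich in acinar cells, fell from 92.7 and 91.9 CPM to 55.4 and 45.4 CPM (log2 -0.87, SE 0.16, adjusted p = 0.00855). Each followed the direction of the tissue list named with it, the call of Cat ended under pan-endocrine scaling, and that of Prdx4 under total-count scaling and without 4 wk B, vehicle A or vehicle B (adjusted p 0.0539 to 0.0691). Of 35 respiratory chain genes, 0 passed in edgeR's test and their median log2 was 0.12, while 18 were higher under total-count scaling (median 0.50), 0 passed under pan-endocrine scaling (median -0.16) and DESeq2's Wald test called 3 higher.

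In the clock, BMAL1 and CLOCK or NPAS2 drive the repressors PER and CRY and the outputs DBP, TEF and HLF through E-boxes, and REV-ERB proteins act on Arntl. Arntl, the gene for BMAL1 (chr7:113207465-113314126, mm10), rose from 8.79 and 8.36 CPM to 20.6 and 20.4 CPM (log2 1.26, SE 0.11, adjusted p = 0.000139), with 11.2 and 10.8 CPM at 24 h after STZ. In knockout islets it stood at 17.8 and 19.9 CPM in vehicle, 8.88 and 9.43 CPM at 24 h after STZ and 11.3 and 11.6 CPM at 4 wk. The vehicle libraries labelled knockout were thus above those labelled control, and a count summed over the gene does not show whether the floxed exon was lost. Of 16 activators and repressors, 3 rose and 3 fell, with a median log2 of 0.01. Npas2 rose too (1.93 and 1.54 CPM to 2.98 and 4.17 CPM, log2 1.05, SE 0.20, adjusted p = 0.0126). The repressors Cry2 (202 and 204 CPM to 74.7 and 85.8 CPM, log2 -1.34, SE 0.13, adjusted p = 0.000246), Bhlhe40 (22.9 and 22.9 CPM to 14.3 and 14.5 CPM, log2 -0.67, SE 0.09, adjusted p = 0.00209) and Ciart (4.3 and 2.8 CPM to 0.936 and 1.18 CPM, log2 -1.74, SE 0.26, adjusted p = 0.00312) fell.

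Of 6 clock output genes, 3 fell and 0 rose, all 6 had a log2 below 0, and the median was -0.52. They were Usp2 (11 and 9.56 CPM to 4.31 and 4.65 CPM, log2 -1.20, SE 0.26, adjusted p = 0.0238), Tef (79.3 and 83.7 CPM to 62 and 64 CPM, log2 -0.37, SE 0.09, adjusted p = 0.0283) and Hlf (14.2 and 14.1 CPM to 10.5 and 8.93 CPM, log2 -0.55, SE 0.14, adjusted p = 0.0426). Dbp measured 17.3 and 15.9 CPM and then 8.94 and 12.6 CPM (log2 -0.62, SE 0.26, adjusted p = 0.232). Per2 (log2 0.17, SE 0.12, adjusted p = 0.544) and Nr1d1, the gene for REV-ERB alpha (log2 -0.08, SE 0.38, adjusted p = 0.957), did not pass. The 3 output calls ended under total-count scaling, where 0 of 6 passed and the median was -0.14, and without any 1 of the 4 libraries (adjusted p 0.0757 to 0.132 for Usp2, 0.1 to 0.218 for Tef and 0.0611 to 0.248 for Hlf). Total-count scaling also ended the call of Bhlhe40, and Npas2 lost its call without 4 wk B or vehicle B (0.079 and 0.113). No source used here gives the hour of day at which islets were taken.

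Immediate early genes, which cells induce within minutes of stimulation or handling, were lower at 4 wk. Of 25 tested, 9 fell and 1 rose, with a median log2 of -0.55, against 4.01% of all genes that fell. Fosb, an AP-1 subunit, fell from 5.92 and 5.54 CPM to 1.32 and 1.15 CPM (log2 -2.21, SE 0.17, adjusted p = 6.36e-05). Zfp36, which encodes an mRNA decay factor, fell from 29.1 and 28.8 CPM to 10.9 and 11.9 CPM (log2 -1.34, SE 0.10, adjusted p = 5.33e-05). Jun, the partner of FOS in AP-1, fell from 27.4 and 24.5 CPM to 12.6 and 12.7 CPM (log2 -1.04, SE 0.13, adjusted p = 0.00111). Each of the 3 had groups that were far apart. Fos (48.2 and 46.3 CPM to 28.6 and 32.2 CPM, log2 -0.64), Egr1 (49.5 and 50.4 CPM to 31.2 and 33.6 CPM, log2 -0.63), Myc (10.9 and 10.6 CPM to 3.61 and 4.15 CPM, log2 -1.47), Klf6 (log2 -0.98), Klf4 (log2 -0.69) and the stress factor Atf3 (1.75 and 1.85 CPM to 0.871 and 0.75 CPM, log2 -1.15) fell as well. Ier5 went against the list, from 15.4 and 14.5 CPM to 25.6 and 25.3 CPM (log2 0.77, SE 0.11, adjusted p = 0.00205). Under total-count scaling 6 fell and 2 rose with a median of -0.17, where Fos, Egr1 and Klf4 lost their calls, and under pan-endocrine scaling 12 fell and 0 rose. Fos lost its call without vehicle A (adjusted p 0.0538), Klf4 without 4 wk B or vehicle A (0.0679 and 0.069), Egr1 without 4 wk A, vehicle A or vehicle B (0.0591 to 0.0738) and Atf3 without any 1 of the 4 (0.0543 to 0.113).

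Of 31 genes of the NF-kB pathway and chemokines, 6 fell and 1 rose, with a median log2 of -0.14. Lcn2, the iron-binding protein lipocalin made in inflamed epithelium, fell from 5.5 and 4.37 CPM to 0.173 and 0.204 CPM (log2 -4.70, SE 0.31, adjusted p = 3.27e-05). Nfkbia, the feedback inhibitor of the pathway, fell from 29.6 and 29.5 CPM to 19.5 and 19.4 CPM (log2 -0.60, SE 0.10, adjusted p = 0.00625). The survival gene Birc3 (log2 -0.76, SE 0.14, adjusted p = 0.0104), the adhesion gene Vcam1 (log2 -0.97, SE 0.20, adjusted p = 0.0152), the chemokine gene Cxcl1 (log2 -2.42, SE 0.47, adjusted p = 0.013) and its neighbour Cxcl2 fell too. Tnfaip2 rose (log2 0.80, SE 0.17, adjusted p = 0.0221). The calls of Nfkbia, Birc3 and Vcam1 ended under total-count scaling. Birc3 lost its call without 4 wk B or vehicle B (adjusted p 0.0812 and 0.095), Cxcl1 without vehicle A or vehicle B (0.0582 and 0.056), and Vcam1 (0.0768 to 0.112) and Tnfaip2 (0.0994 to 0.15) without 4 wk B, vehicle A or vehicle B. Of 40 interferon-stimulated genes, 2 were higher and 1 lower, with a median log2 of -0.04, and this share is near that of all genes tested. The antiviral genes Mx1 (0.12 and 0.341 CPM to 1.29 and 1.14 CPM, log2 2.40, SE 0.46, adjusted p = 0.0116) and Rsad2 (15.8 and 16.3 CPM to 25.9 and 22.3 CPM, log2 0.59, SE 0.15, adjusted p = 0.0434) rose, and the guanylate-binding protein gene Gbp6 fell (7.66 and 7.62 CPM to 4.38 and 3.28 CPM, log2 -0.996, SE 0.17, adjusted p = 0.0066). Mx1 lost its call without vehicle A (adjusted p 0.0546), and Rsad2 under pan-endocrine scaling and without any 1 of the 4 libraries (0.0697 to 0.22).

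Most targets of p53, the factor that answers DNA damage, did not pass at 4 wk. Of 32, 27 did not pass, 4 fell and 1 rose, with a median log2 of -0.08. Of all genes tested, 4.01% fell and 4.98% rose. Cdkn1a, which encodes the cell cycle inhibitor p21, fell from 44.2 and 42.7 CPM to 25.3 and 27.4 CPM (log2 -0.72, SE 0.10, adjusted p = 0.0016). Sesn1, a p53-induced sestrin, fell from 99.9 and 105 CPM to 41.2 and 34.5 CPM (log2 -1.44, SE 0.13, adjusted p = 0.000178). Both were near these levels at 24 h, with 23.7 and 22.9 CPM for Cdkn1a and 38.8 and 35.5 CPM for Sesn1. Ackr3 (log2 -0.86, SE 0.15, adjusted p = 0.00801) and Perp (log2 -0.94, SE 0.21, adjusted p = 0.0255) fell, and Ddit4l rose (0.968 and 1.05 CPM to 2.05 and 1.97 CPM, log2 0.998, SE 0.22, adjusted p = 0.0236). Ackr3 lost its call without 4 wk B or vehicle B (adjusted p 0.0699 and 0.0657), Perp without 4 wk B, vehicle A or vehicle B (0.0582 to 0.178), both under total-count scaling too, and Ddit4l without any 1 of the 4 (0.0856 to 0.146) and under pan-endocrine scaling. Of 21 genes of NAD metabolism and alkylation repair, 1 rose and 0 fell, with a median log2 of 0.10. It was Nmnat2, which makes NAD in neurons and endocrine cells (3.11 and 3.05 CPM to 8.4 and 6.09 CPM, log2 1.23, SE 0.24, adjusted p = 0.0119), and its call ended without 4 wk A, vehicle A or vehicle B (0.0759 to 0.0888).

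Of 34 replication genes, 1 rose and 0 fell, with a median log2 of 0.07, and Mki67, the standard marker of cycling cells, measured 10.1 and 12.1 CPM and then 11.5 and 8.36 CPM (log2 -0.17, SE 0.23, adjusted p = 0.773). The groups overlapped. The gene that rose was the helicase subunit Mcm3, from 3.34 and 3.27 CPM to 4.99 and 4.7 CPM (log2 0.55, SE 0.14, adjusted p = 0.042). Ccnd1, which encodes the D-type cyclin that opens the cycle, rose from 115 and 117 CPM to 165 and 166 CPM (log2 0.51, SE 0.09, adjusted p = 0.00549), and Cdkn2b, an inhibitor of its kinases, rose from 2.68 and 2.95 CPM to 5.18 and 4.29 CPM (log2 0.75, SE 0.20, adjusted p = 0.0489), the 2 of 12 genes of their list to pass. Of 17 growth factor and hormone receptor genes, Igf1r (59.1 and 60.5 CPM to 79.8 and 79.6 CPM, log2 0.41, SE 0.08, adjusted p = 0.0152) and Egfr (29.9 and 32.4 CPM to 44.3 and 40.3 CPM, log2 0.44, SE 0.11, adjusted p = 0.0426) rose. The cytokine signalling inhibitor gene Socs2 fell (24.1 and 27.2 CPM to 15.3 and 11.8 CPM, log2 -0.92, SE 0.23, adjusted p = 0.0384). The call of Ccnd1 ended without vehicle A (adjusted p 0.0548), and those of Mcm3 (0.116 to 0.197), Cdkn2b (0.0813 to 0.252), Igf1r (0.069 to 0.114), Egfr (0.0815 to 0.244) and Socs2 (0.062 to 0.23) without any 1 of the 4 libraries. Pan-endocrine scaling ended those of Mcm3, Ccnd1, Cdkn2b, Igf1r and Egfr, and total-count scaling that of Socs2.

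The regenerating (Reg) genes, which encode small secreted lectins made by injured or inflamed pancreas and gut, were among the abundant transcripts that fell furthest. All 6 members on chromosome 6, which lie from Reg3b (chr6:78370885-78373466, mm10) to Reg3g (chr6:78466268-78468874), fell. Reg3a went from 1877 and 1970 CPM to 13.7 and 10.5 CPM, a 159-fold lower level (log2 -7.31, SE 0.27, adjusted p = 2.1e-06). Reg3g went from 532 and 521 CPM to 7.52 and 6.53 CPM (log2 -6.23, SE 0.16, adjusted p = 7.21e-07), and Reg3b from 4177 and 4028 CPM to 102 and 83.7 CPM (log2 -5.47, SE 0.17, adjusted p = 8.96e-07). Between the groups these levels differed by far more than between the libraries of a group. Reg2 fell from 11774 and 12207 CPM to 713 and 539 CPM (log2 -4.26, SE 0.21, adjusted p = 7.91e-06), Reg3d from 889 and 939 CPM to 113 and 85.6 CPM (log2 -3.21, SE 0.23, adjusted p = 4.94e-05), and Reg1 from 12293 and 11822 CPM to 4092 and 3490 CPM (log2 -1.67, SE 0.12, adjusted p = 4.3e-05).

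The Reg levels at 24 h after STZ lay between vehicle and 4 wk for each of the 6, for example 161 and 156 CPM for Reg3a and 2562 and 2468 CPM for Reg2. Acinar cells make Reg proteins, and the share of the acinar list fell in the same libraries, from 36.8% and 35.9% to 20.5% and 20.4%. The 31 acinar genes tested had a median log2 of -1.20 and a lowest value of -2.70 (Prss3), and 5 of the 6 Reg genes, all but Reg1, had lower values than that. The part of acinar content in the Reg values was not tested. Reg4, a gut member of the family on chromosome 3, had 0 counts in both vehicle libraries and 136 and 117 counts at 4 wk, at least 58.5-fold higher when 3 counts over the vehicle group are taken as the floor. A deposited count stands for 75 bases of coverage, so that a pair of 100-base reads makes up to 2.67 counts, and with a floor of 3 read pairs this bound and those below would be smaller by that factor. It rose with the intestinal genes described below. How reads of similar Reg genes were shared is likewise not stated.

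The last 70 bases before the start of 4 Reg genes are shown, since neighbouring copies of the family fell by unequal amounts. In RefSeq (GRCm38.p6), TATAAA was found within 250 bases upstream, on either strand, in Reg1, Reg2, Reg3b and Reg3g of the 7 genes and in 12.4% of all windows of that length. The windows lie at chr6:78425913-78425982 (plus strand) for Reg1, chr6:78405085-78405154 (plus) for Reg2, chr6:78370815-78370884 (plus) for Reg3b and chr6:78468875-78468944 (minus) for Reg3g, and run 5′ to 3′ along the gene with TATAAA in capitals.
Reg1: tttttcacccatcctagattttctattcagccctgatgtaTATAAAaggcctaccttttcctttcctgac
Reg2: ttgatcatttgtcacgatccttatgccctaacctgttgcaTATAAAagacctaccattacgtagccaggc
Reg3b: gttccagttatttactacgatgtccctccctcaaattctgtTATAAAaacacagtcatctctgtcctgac
Reg3g: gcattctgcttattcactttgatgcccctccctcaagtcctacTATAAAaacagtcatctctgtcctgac
TATAAA begins 30 bases before the start in Reg1 and Reg2, 29 in Reg3b and 27 in Reg3g. Reg3b and Reg3g share a run of 20 identical bases in these windows, while the longest run shared by Reg1 and Reg2 is 9 bases. The log2 values were -5.47 and -6.23 for Reg3b and Reg3g, and -1.67 and -4.26 for Reg1 and Reg2. Reg2 and Reg3b, whose longest shared run is 7 bases, had nearer values than Reg1 and Reg2. Whether shared sequence goes with the size of the fall cannot be tested with 4 genes.

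**Figure D4:**
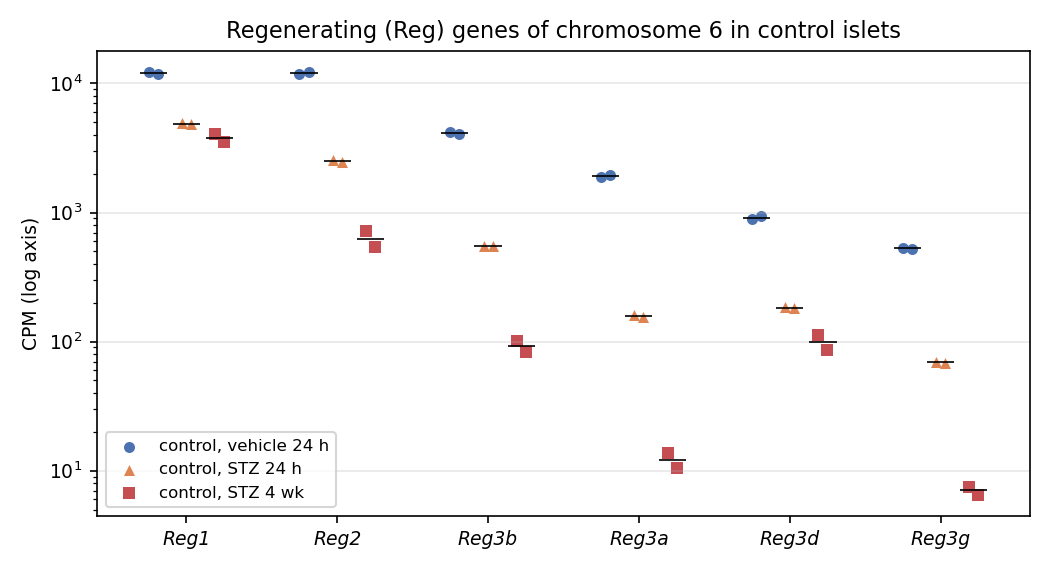
CPM (log axis) of the 6 Reg genes of chromosome 6 in control islets 24 h after vehicle, 24 h after STZ and 4 wk after STZ, with 1 point per library and a line at the mean of 2. In each gene the vehicle libraries are highest and the 4 wk libraries lowest, down to 7.52 and 6.53 CPM for Reg3g.

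Acinar genes fell as a group. Of 31 tested, 24 fell and 0 rose, all had a log2 below 0, and 20 fell under total-count scaling. Prss2, a trypsinogen gene, went from 27308 and 26710 CPM to 10207 and 10720 CPM (log2 -1.37, SE 0.10, adjusted p = 4.89e-05). Other members of small adjusted p were the lipase genes Pnliprp2 (log2 -1.47) and Pnliprp1 (log2 -1.48), and the trypsinogen genes Prss3 (log2 -2.70) and Try10 (log2 -1.70), whose family shares much sequence. Of 17 duct genes, 3 fell and 0 rose, with a median log2 of -0.02. They were Spp1, which encodes osteopontin (120 and 125 CPM to 53.3 and 45 CPM, log2 -1.32, SE 0.14, adjusted p = 0.000335), the mucin gene Muc1 (75.1 and 76.6 CPM to 18.8 and 24.6 CPM, log2 -1.80, SE 0.18, adjusted p = 0.000246) and the carbonic anhydrase gene Car2 (5.73 and 5.01 CPM to 1.54 and 1.75 CPM, log2 -1.71, SE 0.19, adjusted p = 0.000474). Both libraries of 4 wk lay below both of vehicle in these 3 genes.

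Among immune genes, 1 of the macrophage list passed upward at 4 wk, and several B-cell genes fell. Of 28 macrophage and phagocyte genes, 1 rose and 0 fell, 24 had a log2 above 0, and the median was 0.27 (-0.01 with 1 lower under pan-endocrine scaling, and 0.65 with 12 higher under total-count scaling). Their summed share was 0.0182% and 0.0183% of counts in vehicle, 0.0585% and 0.0596% at 24 h after STZ and 0.0319% and 0.0384% at 4 wk, so that the groups did not overlap. Lyz2, the macrophage lysozyme gene, measured 21.1 and 20.6 CPM and then 26.5 and 22.4 CPM (log2 0.23, SE 0.11, adjusted p = 0.297), and had been at 61.5 and 58.4 CPM at 24 h. Lgals3, galectin-3 of activated phagocytes, measured 3.14 and 2.44 CPM and then 2.55 and 3.18 CPM (log2 0.04, SE 0.16, adjusted p = 0.941), with overlapping groups. The fractalkine receptor gene Cx3cr1 rose from 5.28 and 4.43 CPM to 8.38 and 7.75 CPM (log2 0.73, SE 0.15, adjusted p = 0.0174), a call that ended under pan-endocrine scaling and without 4 wk A, 4 wk B or vehicle B (adjusted p 0.0541 to 0.138). Of 19 B and T cell genes, 9 fell and 1 rose. Ms4a1, which encodes the B-cell protein CD20, went from 4.59 and 5.59 CPM to 0.0904 and 0.0437 CPM (log2 -6.25, SE 0.43, adjusted p = 4.12e-05) and was already at 0.0702 and 0.112 CPM at 24 h. The summed share of the B and T cell genes was 0.00205% and 0.00233% of counts in vehicle and 0.000501% and 0.000605% at 4 wk. Cd79a, part of the B-cell receptor, kept counts in all 4 libraries, with 683 and 625 in vehicle and 301 and 499 at 4 wk, and its call (log2 -1.25, SE 0.30, adjusted p = 0.0365) ended under total-count scaling and without any 1 of the 4 libraries (0.0555 to 0.187).

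Contractile genes of the stromal list fell, and endothelial genes passed in both directions. Of 27 stellate, fibroblast and collagen genes, 3 fell and 0 rose, with a median log2 of -0.21. Acta2, smooth muscle actin, went from 58.5 and 57 CPM to 5.78 and 7.59 CPM (log2 -3.11, SE 0.26, adjusted p = 0.000103). Tagln, another contractile gene, went from 30.4 and 28.7 CPM to 3.44 and 4.7 CPM (log2 -2.86, SE 0.29, adjusted p = 0.000296), and the collagen gene Col3a1 from 75.2 and 72.6 CPM to 39.8 and 47.8 CPM (log2 -0.75, SE 0.13, adjusted p = 0.00602). The smooth muscle genes Actg2 and Cnn1 were among the 15 largest losses of all, together with the stomach genes below. Of 19 endothelial genes, the VEGF receptor gene Kdr (119 and 126 CPM to 178 and 175 CPM, log2 0.53, SE 0.09, adjusted p = 0.00515) and the angiopoietin receptor gene Tek (log2 0.50, SE 0.11, adjusted p = 0.024) rose. Vwf, a marker of larger vessels (15.2 and 13.3 CPM to 3.24 and 4.8 CPM, log2 -1.83, SE 0.29, adjusted p = 0.00478), and Lyve1, a marker of lymph vessels (log2 -0.64, SE 0.12, adjusted p = 0.0103), fell, as did Pdpn, which encodes podoplanin. Kdr and Col3a1 lost their calls without vehicle A (adjusted p 0.0595 and 0.0513), Tek without 4 wk A, vehicle A or vehicle B (0.108 to 0.149) and Lyve1 without 4 wk B, vehicle A or vehicle B (0.0566 to 0.0835). Pan-endocrine scaling ended the calls of Kdr and Tek, and total-count scaling those of Col3a1 and Lyve1.

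Genes of liver, gut and stomach were among the largest gains and losses at 4 wk. Of 18 hepatocyte genes, 16 rose and 0 fell, with a median log2 of 3.34. Alb, the albumin gene, went from 117 and 129 CPM to 906 and 743 CPM (log2 2.74, SE 0.16, adjusted p = 1.6e-05), having stood at 2852 and 2932 CPM at 24 h after STZ. The 17 members in no other list held 0.0218% and 0.0233% of counts in vehicle, 0.256% and 0.224% at 4 wk, and 0.741% and 0.740% at 24 h. The liver genes Cyp4a12a, a cytochrome, and Elovl3, a fatty acid elongase gene, had 0 counts in vehicle and were at least 434.5-fold and 379-fold higher at 4 wk.

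Of 19 intestinal genes, 12 rose and 2 fell, with a median log2 of 4.20 (15 members in no other list held 0.0234% and 0.0237% of counts in vehicle and 0.0611% and 0.0615% at 4 wk). Sis, the sucrase of the gut brush border, had 0 and 3 counts in vehicle and 8264 and 6765 counts at 4 wk, and its groups were far apart. Prap1, a gene of gut and uterus, Adh6a and Clca4b had 0 counts in vehicle and were at least 1042-fold, 739-fold and 519-fold higher at 4 wk. Akp3, an intestinal phosphatase gene, measured 0.0653 and 0 CPM and then 36.9 and 54.6 CPM (log2 10.38, SE 0.61, adjusted p = 4.12e-05). The other genes among the 15 largest gains were Clec2h, Slc13a1, Mep1b, Muc13, Cdh17, Cyp2c55, Alpi and Hsd3b5. Sis, Adh6a and Prap1 were at most 0.36 CPM in both control libraries 24 h after STZ.

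Of 11 stomach lining genes tested, 8 fell and 0 rose, with a median log2 of -9.82, or -6.95 with genes at 0 placed at their bound. Gkn2 and Gkn1, secreted by the mucous cells of the stomach, measured 118 and 114 CPM and 84.7 and 75.8 CPM in vehicle and had 0 counts in both libraries of 4 wk, at least 10060-fold and 6944-fold lower. Tff1, a trefoil peptide, and Muc5ac, the surface mucin, were at least 2116-fold and 973.5-fold lower by the same floor. Psca, Cldn18, Dpcr1, Ctse, Cr2 and Sptssb were the other large losses beside Reg3a, Reg3g, Ms4a1, Actg2 and Cnn1. The part that tissue carried into the preparations had in these values was not tested.

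To separate the state at 4 wk from the first day after STZ, the 4 wk libraries were set against control islets 24 h after STZ. These comparisons share the vehicle or the 4 wk libraries, so values are given side by side. Of 17411 genes, 956 differed (5.49%), 221 higher at 4 wk (1.27%) and 735 lower (4.22%). Genes that were higher at 24 h and lower at 4 wk included the acute-phase genes Saa1 (40.2 and 41.6 CPM at 24 h, 1.57 and 1.38 CPM at 4 wk, log2 -4.79, adjusted p = 0.000129) and Orm2 (5.39 and 6.12 CPM, then 0.148 and 0.167 CPM, log2 -5.18, adjusted p = 3.81e-05), the liver lectin gene Mbl2 (log2 -3.55, adjusted p = 5.84e-05) and the lymphoid chemokine gene Ccl21b (log2 -7.20, adjusted p = 0.000342). The deposited transcript models place Ccl21b at more than 1 locus, so how its reads were split among near-identical copies is uncertain. Saa1 at 4 wk was back at its vehicle level of 1.46 and 1.92 CPM. Of 27 stellate and collagen genes, 17 were lower at 4 wk than at 24 h and 0 higher (median log2 -1.36), of 25 immediate early genes 10 were lower and 1 higher (-1.06), of 28 macrophage genes 8 were lower and 0 higher (-0.57), and of 34 replication genes 6 were lower and 0 higher (-0.75).

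For other genes no change was detected between 24 h and 4 wk. Herpud1 (189 and 191 CPM at 24 h), Cry2 (93.5 and 98 CPM), Sesn1, Cdkn1a, Hk2 and Gcg (21347 and 21408 CPM) did not pass (adjusted p from 0.238 to 1 in edgeR's test), which does not show that they were equal. Besides Aldh1a3, genes higher at 4 wk than at 24 h included Arntl (log2 0.90, adjusted p = 0.00175), Igf1r (51.3 and 50.1 CPM at 24 h, log2 0.65, adjusted p = 0.00219), Creld2 (log2 0.71, adjusted p = 0.00756), Pdia4 (log2 0.61, adjusted p = 0.0107), Scd1 (log2 0.64, adjusted p = 0.0326) and Ier5 (log2 0.64, adjusted p = 0.00874). The largest gains over 24 h were again the gut genes Adh6a, Sis, Cyp2c66, S100g, Akp3, Slc13a1, Mep1b and Rbp2.

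The question of the series is whether loss of Bmal1 in beta cells alters the islet response to STZ, and the control change at 4 wk differed from the knockout change in 4538 of 17411 genes (26.1%), 1280 with a higher (7.35%) and 3258 with a lower change in control (18.7%). This split turned with the scaling, to 5832 higher and 2371 lower under total-count scaling (median gene 0.62) and to 63 higher and 8821 lower under pan-endocrine scaling (median gene -1.02). With only the 8 libraries compared 3226 genes differed, and with the letters A and B as a block in that fit 2338. The contrasts share no library. In knockout islets 6244 genes passed at 4 wk (35.9%), 4199 higher (24.1%) and 2045 lower (11.7%). Of 18 beta-cell transcription factors, 4 rose and 1 fell in control while 1 rose and 11 fell in knockout, and 13 differed upward and 1 downward between genotypes (median difference 1.26). The 20 pan-endocrine genes used for scaling moved in the same direction, with 14 differing upward and 0 downward (median difference 0.999), and on their scale 1 of the 18 factors differed upward and 2 downward (median 0.23). Neurod1, Insm1, Isl1, Pax6 and Rfx6 stand in both lists. Scaling to a list holds its members near 0 as a set, so part of this outcome was fixed in advance. Glp1r went up in control (log2 0.67) and down in knockout (log2 -1.22), a difference of 1.89 (adjusted p = 1.68e-05), and Ucn3 likewise (0.66 and -1.49, difference 2.15, adjusted p = 0.000127). On the pan-endocrine scale these differences were 0.85 (adjusted p = 0.00256) for Glp1r and 1.12 (adjusted p = 0.000889) for Ucn3. Of 28 macrophage genes, 1 rose in control and 26 in knockout, with 23 differing downward (26 under pan-endocrine and 19 under total-count scaling). Lgals3 had a log2 of 0.04 in control and 6.62 in knockout (difference -6.58, adjusted p = 5.28e-07).

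Changes in the same direction in both genotypes were also found. Across 13875 genes the control and knockout changes had a correlation of 0.59, and genes are not independent replicates in it. Of 18 hepatocyte genes, 16 rose in control and 17 in knockout, and 0 fell in either. Of 19 intestinal genes, 12 rose and 2 fell in control and 19 rose in knockout. Gcg fell by 0.81 in control and by 0.79 in knockout on the log2 scale, and the difference of -0.02 did not pass (adjusted p = 0.965). For Gcg the difference was 0.61 under total-count scaling (adjusted p = 0.00495) and -1.05 under pan-endocrine scaling (adjusted p = 0.00235). Scd1 rose in both (3.18 and 3.33, difference -0.16, adjusted p = 0.647), with a difference of -1.19 under pan-endocrine scaling (adjusted p = 0.0106). Aldh1a3 rose in both but less in control (2.75 and 3.46, difference -0.71, adjusted p = 0.0117), a difference that was -0.08 under total-count scaling (adjusted p = 0.712). In the fit used here, calls of immediate early genes and clock outputs went mostly opposite ways. Of 25 immediate early genes, 9 fell in control and 14 rose in knockout, and of 6 clock outputs 3 fell in control and 6 rose in knockout, with all 6 differing downward. Under total-count scaling the control falls were smaller, as given above, and no clock output passed in control. On that scale 15 of the 25 differed downward and 4 upward between genotypes, and 5 of the 6 downward. Among the largest higher values in control were Atp6v0c, a proton pump subunit gene (41.3 and 68.7 CPM in control at 4 wk and 0.385 and 0.797 CPM in knockout at 4 wk, difference 6.80, adjusted p = 3.32e-05), Pde10a, a phosphodiesterase gene (11.6 and 13.2 CPM in control vehicle and 48.3 and 45.8 CPM at 4 wk, difference 2.84, adjusted p = 0.0248), Cox6a2 (difference 2.53) and Dusp4 (difference 2.34). The 8 largest lower values (Clca1, AY761184, Gcnt3, Lypd8, Clca4a, Gsta1, Ces2c and Cd209b) belonged to genes with 0 counts in both knockout vehicle libraries. The acinar share moved in opposite directions, from 36.8% and 35.9% to 20.5% and 20.4% in control and from 12.2% and 11.9% to 24.5% and 24.8% in knockout, and its part in these differences was not tested.

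**Figure D5:**
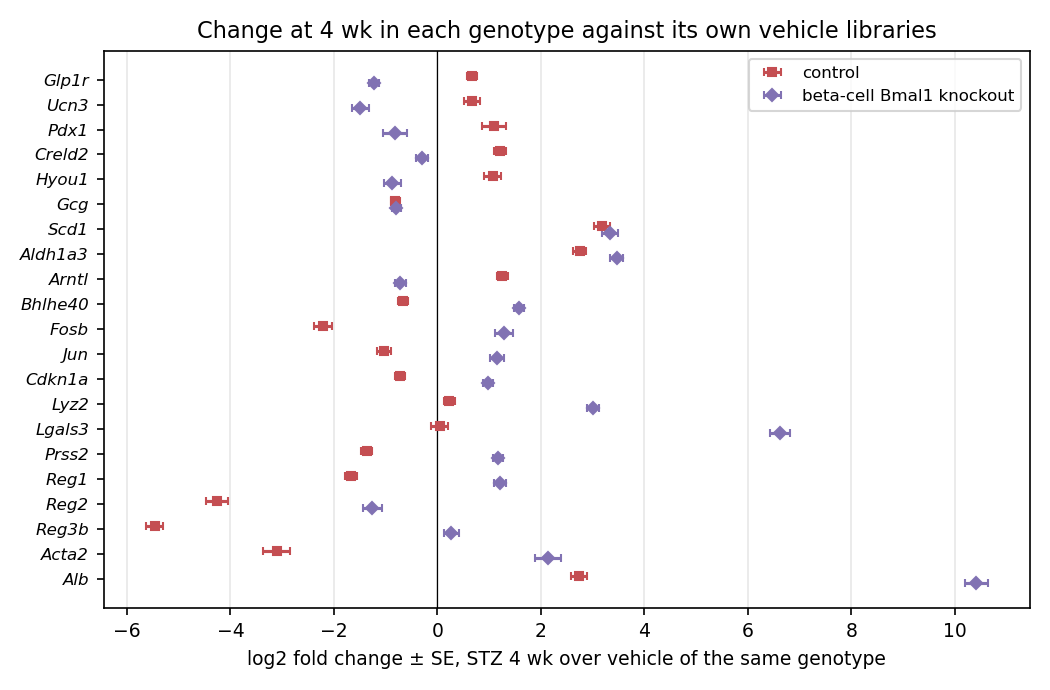
Log2 fold change at 4 wk after STZ over the vehicle libraries of the same genotype, with its SE, for control (squares) and beta-cell Bmal1 knockout (diamonds). Gcg and Scd1 nearly coincide, beta-cell genes such as Glp1r lie on opposite sides of 0 (0.67 and -1.22), and Lgals3 lies at 0.04 and 6.62.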

How the data were processed

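Gene counts of 12 islet libraries were used, 4 of them in the comparison described. Polyadenylated RNA from 150 ng of total RNA was read as 100-base pairs, per the labels' protocols. The deposited expected counts were made by the authors with StringTie 1.3.6 on mm10, per the submitters' processing notes, and no source used here names the aligner. Each count equals coverage times length over 75 bases, rounded up, although reads are 100 bases, so that counts are proportional to reads but are not numbers of reads or read pairs. The authors' TPM values from the same tool, deposited with them, were used only for levels per length.

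Counts were tested with edgeR 4.0.16 in R 4.3.3 (robust quasi-likelihood F test, TMM scaling, filterByExpr, Benjamini-Hochberg adjustment over 17411 genes, two-sided, threshold 0.05), with 1 fit of the 6 groups and 6 residual degrees of freedom. The SE is the log2 change over the root of F. With 2 libraries a group, an exact permutation test of single values cannot reach 0.05 and was not used. The fit was also run on simulated counts with known changes. Those counts held no shift in acinar content, no gap tied to GC content and the same dispersion in all groups. The run therefore cannot show how the fit handles these features of the data. Alternatives used DESeq2 1.42.0, other scalings, filters, a GC offset, a block on the letters A and B, a covariate of the acinar genes, fewer libraries and each library left out. Gaps between A and B had a correlation across genes of -0.31 between vehicle and 4 wk of control, and of 0.36 in vehicle and 0.79 at 4 wk between same letters of control and knockout. The labels do not say what a letter marks, so the letters were not taken as pairs. Bounds take 3 counts over a group as the floor and cover counting error only.

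Named genes were Arntl, the 15 largest gains and losses with a mean CPM of at least 2, in each list described the 6 members of smallest adjusted p, a fixed set, and the 8 largest differences each way in the other tests; members of lists named beyond these were chosen after their values were seen. The groups and gene lists were chosen with earlier results of these data known. Some members of the lists are counted in them but are not reported here by name.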

Additional observations from a re-analysis of the deposited data

Results flagged for a closer look

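The change at 4 wk over vehicle differed between control and knockout islets in 4538 genes by edgeR's test of the difference (adjusted p under 0.05), and the named genes among them are given here as the control change minus the knockout change on the log2 scale. Control and knockout are different groups of 2 libraries per time, and the acinar share of counts moved in opposite directions in them. These are differences of changes, not of levels, and their general size moves with the scaling, by 0.62 for the median gene under total-count and by -1.02 under pan-endocrine scaling. Among clock genes the difference was above 0 for Arntl 1.97, Npas2 1.14 and Per2 0.55, and below 0 for Cry2 -0.90, Bhlhe40 -2.24, Ciart -2.47, Usp2 -3.05, Tef -1.03, Hlf -1.27, Dbp -2.31 and Nr1d1 -2.59. Under pan-endocrine scaling it was 0.12 for Npas2 (adjusted p = 0.707) and turned to -0.47 for Per2 (adjusted p = 0.0317). Under total-count scaling it was -0.27 for Cry2 (adjusted p = 0.241).

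For these beta-cell genes the difference of the changes was above 0: Iapp 1.06, Pdia4 1.55, Pdx1 1.92, Nkx6-1 1.60, Nkx2-2 1.45, Myt1 1.50, Foxa2 1.03, Slc2a2 0.62, Ucn3 2.15, Glp1r 1.89 and Unc13a 1.83. The difference was below 0 for Npy1r -1.73, for Bhlha15 -1.45, which is abundant in acini, and for the alpha-cell gene Slc38a5 -1.52. Under pan-endocrine scaling the calls of Iapp, Pdia4, Nkx6-1, Nkx2-2, Myt1, Foxa2 and Slc2a2 ended. Those of Pdx1, Ucn3, Glp1r and Unc13a held. Of genes held low in beta cells, the differences were Aldh1a3 -0.71, Oat -2.23, Mylk -5.58, Sox9 -2.85, Lmo4 -1.42, Yap1 -2.63 and Rest -2.47. Total-count scaling ended the call of Aldh1a3. In ER protein folding the difference was above 0 for Sdf2l1 1.97, Creld2 1.52, Pdia6 1.56, Calr 1.34, Hyou1 1.94, Manf 1.40, Hspa5 1.25 and Hsp90b1 1.37, and below 0 for Herpud1 -1.77, Sel1l -1.23, Nupr1 -2.34 and Atf3 -3.14. Calr, Manf, Hspa5 and Hsp90b1 lost their calls under pan-endocrine scaling, while the other ER genes listed kept theirs.

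Metabolic and antioxidant genes gave Prdx4 -1.91, Cat -3.85, Scd2 1.70, Pklr -2.29, Fbp1 -2.50, Txnip -1.46, Hk2 -4.81, Pfkfb3 -2.93 and P4ha1 1.35. Immediate early genes gave Fosb -3.50, Zfp36 -3.35, Jun -2.19, Fos -2.11, Egr1 -1.53, Myc -2.77, Klf6 -2.92, Klf4 -4.13 and Ier5 0.59, and NF-kB genes Nfkbia -0.77, Birc3 -1.86, Lcn2 -6.68, Cxcl1 -5.06 and Vcam1 -3.12. Genes of p53, cell cycle and growth receptors gave Cdkn1a -1.69, Sesn1 -2.32, Ackr3 -1.55, Perp -3.69, Mki67 -2.34, Ccnd1 1.25 and Igf1r 1.23. Of the genes in this paragraph so far, P4ha1, Ier5, Ccnd1 and Igf1r lost their calls under pan-endocrine scaling, and Nfkbia under total-count scaling. For the 6 Reg genes of chromosome 6 the difference of the changes was below 0, at Reg1 -2.88, Reg2 -3.00, Reg3a -6.07, Reg3b -5.74, Reg3d -3.13 and Reg3g -7.41.

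Of the genes of other cell types and tissues the differences were Prss2 -2.54, Lyz2 -2.77, Lgals3 -6.58, Cx3cr1 -0.83, Ms4a1 -9.93, Acta2 -5.24, Tagln -4.98, Col3a1 -2.07, Kdr 0.63, Vwf -4.59, Alb -7.67, Spp1 -2.27, Muc1 -3.13, Car2 -7.06, Cd79a -2.24, Gbp6 -2.27, Rsad2 1.04, Pnliprp2 -2.73, Pnliprp1 -2.75, Prss3 -2.15 and Try10 -2.45. Kdr and Rsad2 lost their calls under pan-endocrine scaling, and Cx3cr1 under total-count scaling. Saa1, Orm2 and Mbl2, acute-phase and liver genes, gave Saa1 -9.96, Orm2 -8.60 and Mbl2 -6.12, where the fitted values of Saa1 and Orm2 are no bound because both knockout vehicle libraries held 0 counts. Among the largest higher values were Atp6v0c 6.80, Pde10a 2.84, Dusp4 2.34 and Cox6a2 2.53, and the knockout libraries at 4 wk differed between A and B for Pde10a (4.73 and 22.6 CPM).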

How the results depend on the processing

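Over the alternatives, the count of genes changed at 4 wk over vehicle (1565) was 4307 with total-count scaling, 3245 with a GC offset, 9978 with the acinar score as a covariate, 934 with only the 4 libraries compared, 2386 with DESeq2's Wald test, and 936 to 1128 with 1 library left out. The genes differing between genotypes (4538) were 8203 with total-count scaling, 8884 with pan-endocrine scaling, 7477 with a GC offset and 9785 with the acinar covariate, and 3379 to 4788 with 1 library left out. Those differing between 4 wk and 24 h (956) were 2285 with a GC offset, 8701 with the acinar covariate, 1759 with the Wald test and 494 to 610 with 1 library left out. The causes were not tested. Of 108 named genes that differed between genotypes, 104 kept call and direction under total-count scaling, 89 under pan-endocrine scaling and 92 with the 8 libraries and the block. Under pan-endocrine scaling 5 changed sign, to -0.44 for Ier5, -0.40 for Kdr, -0.47 for Per2, -0.00 for Rsad2 and -0.41 for Slc2a2 (chosen after seeing the data).

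With the letters as a replicate block in the fit of all libraries, the 3 counts were 1337, 4176 and 840. With the GC offset and the block they were 3008, 7221 and 2074, and with only the libraries compared and the block 1186, 2338 and 1493. Pairing the letters crosswise, chosen after seeing the data, gave 2887 genes at 4 wk over vehicle. The labels do not say that a letter marks a shared batch. Gaps between A and B correlated between control and knockout at 0.36 in vehicle, 0.15 at 24 h and 0.79 at 4 wk, and at -0.31 between vehicle and 4 wk of control, so that a factor shared by letters across genotypes cannot be told apart here, and a call lost under the block is not read as a weaker effect.

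Of 121 called genes among the 143 named, 70 kept their call without each library, 95 under pan-endocrine and 97 under total-count scaling, and 119 kept their direction in every alternative but the acinar covariate. With only the 4 libraries compared, 41 of 120 called genes lost their call. With the acinar covariate, 30 of 121 lost their call and 18 changed sign. Log2 values of opposite sign were as follows. Total-count scaling gave Tef 0.011, Nr1d1 0.31, Txnip 0.0049, Mki67 0.22 and Saa1 0.18. Pan-endocrine scaling gave Per2 -0.12, Iapp -0.069, Slc2a2 -0.0699, Sst -0.14, Ppy -0.0857, Lyz2 -0.046 and Lgals3 -0.24. A GC offset gave Sst -0.0208, Ppy -0.0408 and Lgals3 -0.14, and with the block Sst -0.0216, Ppy -0.0623 and Lgals3 -0.14. The acinar covariate gave Usp2 1.19, Dbp 1.78, Nr1d1 3.78, Iapp -0.25, Bhlha15 0.59, Slc2a2 -0.67, Gc -0.0933, Slc38a5 0.93, Manf -0.53, Nupr1 0.52, Hspa5 -1.10, Hsp90b1 -1.39, Scd2 -0.15, Txnip 0.0534, Pfkfb3 0.84, P4ha1 -0.63, Egr1 0.15, Myc 0.22, Cdkn2b -0.56, Lyz2 -0.28, Col3a1 0.15, Vwf 0.84, Cd79a 1.66, Rsad2 -0.62 and Egfr -0.25. With 1 library left out, values ranged from -0.57 to 0.29 for Nr1d1, -0.11 to 0.37 for Sst, -0.46 to 0.67 for Ppy, -0.41 to 0.044 for Mki67, -0.13 to 0.24 for Lgals3 and -0.38 to 0.0205 for Saa1.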
